A study of Mus musculus with 6 samples.

Results

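Excitatory neurons of the cerebral cortex were followed in demyelinated brain lesions through 9 genes that mark these cells or the layers they occupy: Lamp5, Cux2, Cux1 and Rorb for the upper layers, Tbr1 and Fezf2 for the deep layers, and Neurod2, Neurod6 and Bhlhe22 for excitatory neurons of all layers. The genes were chosen by name, with earlier results of these data known. A gene was read from its probe set, the group of array probes summarised to a single value, with the highest mean over all arrays among those that the platform annotation pairs with exactly 1 gene symbol. By this rule 8 of the 9 genes were found, out of 22180 genes in all, and Bhlhe22, a basic helix-loop-helix factor, was not analysed here.

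The comparison is between transgenic mice, in which GFAP-positive astrocytes that do not divide can be removed by apoptosis, and wild type mice. Mice of both genotypes, aged 5 to 6 weeks, received LPC, a detergent-like lipid that strips myelin locally, and 48 hours later CID, the compound that starts the ablation in the transgenic animals. Lesions were cut out by macrodissection 7 days after LPC, and their RNA was hybridised to Affymetrix arrays, with 3 transgenic and 3 wild type arrays. As the controls had the lesion and the compound too, the labelled contrast is genotype, and it holds no unlesioned brain. The promoter of the transgene, the strain, the place of the lesion and the number of animals behind the arrays are not stated in the labels. The p-values below therefore cover the spread between these 6 arrays, which may be partly technical.

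Excitatory neurons of the cortex arise from a common progenitor zone and settle in layers in the order of their birth, deep layers first. Transcription factors then hold each layer's identity: Tbr1 and Fezf2 guide neurons that project to thalamus, brainstem and spinal cord, while Cux1 and Cux2 mark neurons that connect cortical areas. The NeuroD factors are basic helix-loop-helix proteins that drive the maturation of excitatory neurons in general. In bulk tissue, fewer cells of a type and less RNA per cell cannot be told apart.

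Lamp5 was the 1 gene of the 8 whose transgenic arrays all lay above the wild type arrays. In the other 7 the groups overlapped and the 95% confidence interval included 0, with log2 differences from -0.08 to 0.38. Means were higher in transgenic lesions for 7 of the 8, against 48.9% of all probe sets, and the median difference was 0.20 for the 8 genes and -0.01 for all probe sets. General neuron genes showed the same direction, at 13 of 15 with a higher mean and a median of 0.21. Levels are log2 intensities throughout, and differences are transgenic minus wild type on that scale.

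No gene passed the threshold of 0.05 for the adjusted p in limma, which called 0 of 41345 probe sets (0%). Unadjusted p-values under 0.05 were given to 3668 probe sets (8.87%). Among the 8 genes, 1 did so, Lamp5. Groups that did not overlap were found for 16.1% of probe sets, and for the same 1 of the 8 genes.

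**Figure D1:**
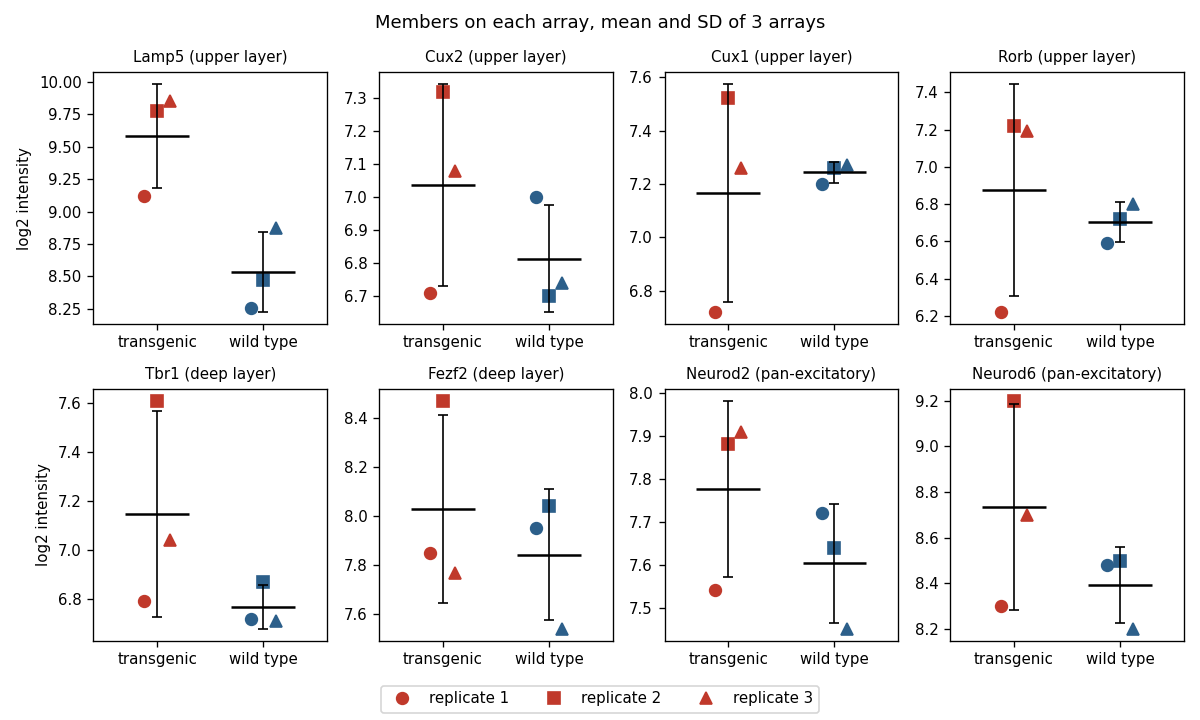
Log2 intensity (vertical axis, its range set for each gene) of the 8 measured genes in transgenic and wild type lesions, with a point for each array shaped by replicate number, the mean as a line and the SD of 3 arrays as a bar. The groups are apart in Lamp5, from 9.12 to 9.85 in transgenic and 8.26 to 8.87 in wild type lesions, and overlap in every other panel.

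Among the upper layer genes, Lamp5 encodes a membrane protein of endosomes in neurons, related to the lysosomal LAMP proteins, and is used as a marker both of upper-layer neurons and of a class of cortical interneurons. Its level was 9.12, 9.78 and 9.85 in transgenic replicates 1, 2 and 3, against 8.26, 8.47 and 8.87 in wild type replicates 1, 2 and 3. The lowest transgenic array lay above the highest wild type array. The means were 9.58 ± 0.41 in transgenic and 8.53 ± 0.31 in wild type lesions (SD, n = 3 each), a 2.07-fold difference (log2 difference 1.05, SE 0.25, 95% confidence interval 0.46 to 1.64). In limma the unadjusted p was 0.00381 and the adjusted p 0.401, at rank 389 of all probe sets by p. The exact two-sided permutation p over the 20 assignments was 0.1, the smallest that 3 against 3 arrays can give.

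Across 14 alternatives of processing the Lamp5 difference stayed between 0.84 and 1.30, with adjusted p-values in limma from 0.0058 to 0.984. Leaving out dim probe sets could not change this difference, which is fitted for each probe set alone. A block by replicate number could not, as each number has 1 array in each group. Averaging over probe sets could not, as Lamp5 has 1 probe set. The lowest difference came when the mean of the general neuron list was subtracted from each array. The lowest adjusted p came from a fit with array weights, where transgenic replicate 3 had a weight of 7.67 and replicates 1 and 2 had 0.284 and 0.258, so that this call rests mostly on 1 transgenic array.

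Lamp5 is also a gene of inhibitory neurons. Of the 17 measured genes of the inhibitory neuron list, which holds Lamp5 itself, 7 had every transgenic array above every wild type array and 0 had every one below. Across all probe sets, 8.54% lay wholly above and 7.6% wholly below. The list mean was 7.80 to 8.05 in transgenic and 7.45 to 7.74 in wild type lesions. Its median difference was 0.06, with 11 higher and 6 lower means. Of the 17, 6 had an unadjusted p under 0.05 with a higher mean and 0 with a lower mean, beside 4.82% and 4.05% of all probe sets. In limma 0 passed the adjusted threshold.

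Beside Lamp5, the genes wholly above were Vip (1.22) and Pvalb (1.41), which mark separate interneuron classes, and the neuropeptide genes Cck (0.84) and Npy (0.73). The others were Id2 (0.45), an inhibitor of helix-loop-helix factors, and the calcium-binding protein Calb2 (0.53). The unadjusted p of Calb2 in limma was 0.0501, so it is not among those under 0.05. Other markers of the list had lower means: Gad2, which makes the transmitter GABA, differed by -0.31, and Ndnf and Sncg, markers of interneuron classes, by -0.22 and -0.17. How much of the Lamp5 difference belongs to interneurons was not tested.

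RefSeq promoter windows, from 250 bases before to 50 after a start on the GRCm38.p6 build, matched 8 of the 9 genes by symbol, in 11 windows. They were searched on both strands for the E-box CANNTG, the letters that basic helix-loop-helix factors such as Neurod2 and Neurod6 bind, for its form CAGATG, read as CATCTG on the other strand, and for the T-box core AGGTGT, read there as ACACCT, which can share letters with an E-box. An E-box was found in 9 of the 11 windows, against 72.3% of all 32851 windows. The CAGATG form was found in 3, in Lamp5, Cux2 and Neurod2, against 17.2%, and the T-box core in 1, in Neurod6, against 13.7%. A match describes letters only. The Lamp5 windows are shown because this gene stands apart in the arrays, with E-boxes in capitals, and only the downstream start holds the CAGATG form.
Lamp5 upstream start (chr2:136052089-136052388, + strand): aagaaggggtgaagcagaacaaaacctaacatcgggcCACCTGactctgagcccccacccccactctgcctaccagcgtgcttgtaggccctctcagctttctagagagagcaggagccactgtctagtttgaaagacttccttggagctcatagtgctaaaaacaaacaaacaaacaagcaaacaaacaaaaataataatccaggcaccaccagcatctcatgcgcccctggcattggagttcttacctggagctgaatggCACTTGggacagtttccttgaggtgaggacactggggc
Lamp5 downstream start (chr2:136057498-136057797, + strand): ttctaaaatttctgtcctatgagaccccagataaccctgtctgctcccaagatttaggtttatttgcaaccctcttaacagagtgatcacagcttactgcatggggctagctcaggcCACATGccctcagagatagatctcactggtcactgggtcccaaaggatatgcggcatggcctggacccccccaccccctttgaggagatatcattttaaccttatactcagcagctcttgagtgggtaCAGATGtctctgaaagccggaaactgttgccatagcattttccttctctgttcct

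Cux2, a homeodomain factor of upper-layer neurons that shapes their dendrites, was 6.71, 7.32 and 7.08 in transgenic replicates 1, 2 and 3, against 7.00, 6.70 and 6.74 in wild type replicates 1, 2 and 3. Transgenic replicates 2 and 3 were above every wild type array, and transgenic replicate 1 lay among them. The difference was 0.22 (SE 0.20, interval -0.23 to 0.68), at an adjusted p of 0.786 in limma. It was 0.39 without transgenic replicate 1, 0.08 without transgenic replicate 2 and 0.01 relative to general neurons.

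Its paralog Cux1, found in the same layers and also widely outside neurons, was 6.72, 7.52 and 7.26 in the transgenic arrays, against 7.20, 7.26 and 7.27 in the wild type arrays. The transgenic arrays lay on both sides of a tight wild type group. The difference was -0.08 (SE 0.22, adjusted p 0.948 in limma), and it turned to 0.15 without transgenic replicate 1. A further probe set of Cux1, read at 4.53 to 4.74 on the 6 arrays, differed by -0.02.

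Rorb, a nuclear receptor of the layer that takes thalamic input, was 6.22, 7.22 and 7.19 in the transgenic arrays, against 6.59, 6.72 and 6.80 in the wild type arrays. Here too transgenic replicates 2 and 3 lay above every wild type array and replicate 1 below. The difference was 0.17 (SE 0.28, adjusted p 0.896 in limma), the widest standard error of the 8 genes, and it was 0.50 without transgenic replicate 1 and 0.00 without transgenic replicate 2.

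Of the deep layer genes, Tbr1, a T-box factor of neurons that project to the thalamus, was 6.79, 7.61 and 7.04 in the transgenic arrays, against 6.72, 6.87 and 6.71 in the wild type arrays. Only wild type replicate 2 reached into the transgenic range. The difference was 0.38 (SE 0.22, interval -0.14 to 0.90), which is 1.30-fold, at an adjusted p of 0.668 in limma. It was 0.56 without transgenic replicate 1 and 0.15 without transgenic replicate 2.

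Fezf2, a zinc finger factor that specifies neurons projecting to the spinal cord, was 7.85, 8.47 and 7.77 in the transgenic arrays, against 7.95, 8.04 and 7.54 in the wild type arrays. Transgenic replicate 2 alone stood above the wild type range. The difference of 0.18 (SE 0.24, adjusted p 0.864 in limma) turned to -0.03 without that array.

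Of the genes shared by all layers, Neurod6 was 8.30, 9.20 and 8.70 in the transgenic arrays, against 8.48, 8.50 and 8.20 in the wild type arrays. Its difference was 0.34 (SE 0.24, adjusted p 0.735 in limma), and 0.11 without transgenic replicate 2. Neurod2, which in the mouse is needed for the wiring of thalamic input to the cortex, was 7.54, 7.88 and 7.91 in the transgenic arrays, against 7.72, 7.64 and 7.45 in the wild type arrays. In both genes transgenic replicates 2 and 3 lay above every wild type array and replicate 1 lay inside the wild type range. For Neurod2 the difference was 0.18 (SE 0.16, adjusted p 0.800 in limma). Exact permutation p-values of the 7 genes other than Lamp5 ran from 0.2 to 0.9.

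The promoter windows of Tbr1 and Neurod6, the genes with the largest differences after Lamp5, are given with E-boxes in capitals. The Neurod6 window also holds the T-box core, as ACACCT.
Tbr1 (chr2:61804203-61804502, + strand): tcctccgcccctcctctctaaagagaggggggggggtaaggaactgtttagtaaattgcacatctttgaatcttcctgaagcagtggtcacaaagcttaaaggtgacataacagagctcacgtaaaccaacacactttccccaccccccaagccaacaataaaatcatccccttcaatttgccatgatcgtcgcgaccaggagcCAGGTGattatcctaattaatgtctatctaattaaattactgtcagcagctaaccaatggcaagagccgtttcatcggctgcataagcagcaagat
Neurod6 (chr6:55681214-55681513, - strand): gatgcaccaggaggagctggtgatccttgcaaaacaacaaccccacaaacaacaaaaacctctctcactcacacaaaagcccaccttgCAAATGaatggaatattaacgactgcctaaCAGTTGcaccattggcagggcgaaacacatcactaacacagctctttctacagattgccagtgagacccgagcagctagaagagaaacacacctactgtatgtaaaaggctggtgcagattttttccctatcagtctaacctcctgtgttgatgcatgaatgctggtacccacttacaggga

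**Figure D2:**
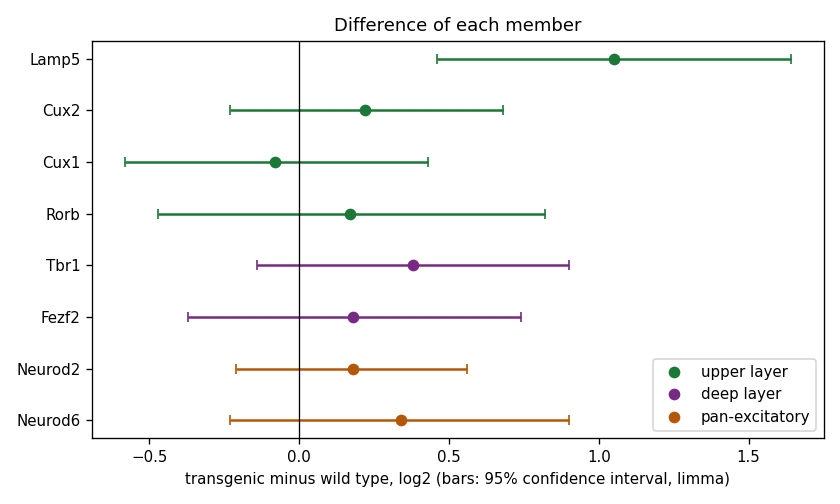
Difference between transgenic and wild type lesions (horizontal axis, log2) of the 8 genes with 95% confidence intervals from limma, coloured by layer group. The interval of Lamp5 runs from 0.46 to 1.64, and those of the other 7 include 0.

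The transgenic arrays did not move together. In transgenic replicate 2, all 8 genes lay above every wild type array, and in transgenic replicate 3, 6 of 8 did. In transgenic replicate 1, 1 did, Lamp5, and 2 lay below every wild type array. Over all probe sets the shares above every wild type array were 34.7%, 36.2% and 27.3% in transgenic replicates 1, 2 and 3. Of the 15 general neuron genes, 2, 13 and 13 lay above in transgenic replicates 1, 2 and 3. Transgenic replicate 2 also had the lowest array median, 5.34, where the other 5 arrays had 5.52 to 5.59, and centring every array on its median gave Lamp5 1.11 and Tbr1 0.44.

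Setting upper against deep layers, the 4 upper layer genes had a median difference of 0.20 and the 2 deep layer genes of 0.28. Without transgenic replicate 2 these medians were 0.04 and 0.06, without transgenic replicate 1 they were 0.44 and 0.42, and with array weights 0.37 and 0.10, so their order depended on the arrays and weights used. The mean deviation of the upper layer genes from their wild type means was -0.13, 0.64 and 0.52 in transgenic replicates 1, 2 and 3, and that of the deep layer genes 0.02, 0.73 and 0.10. Upper minus deep was therefore -0.15, -0.09 and 0.42 in the transgenic arrays, against -0.09, -0.19 and 0.28 in the wild type arrays. The ranges overlap, so neither layer group stood apart from the other beyond the spread between arrays. Without Lamp5 the same contrast was -0.38, -0.30 and 0.15 in the transgenic arrays, against -0.02, -0.18 and 0.20 in the wild type arrays. For the 2 measured genes of all layers the median was 0.26.

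**Figure D3:**
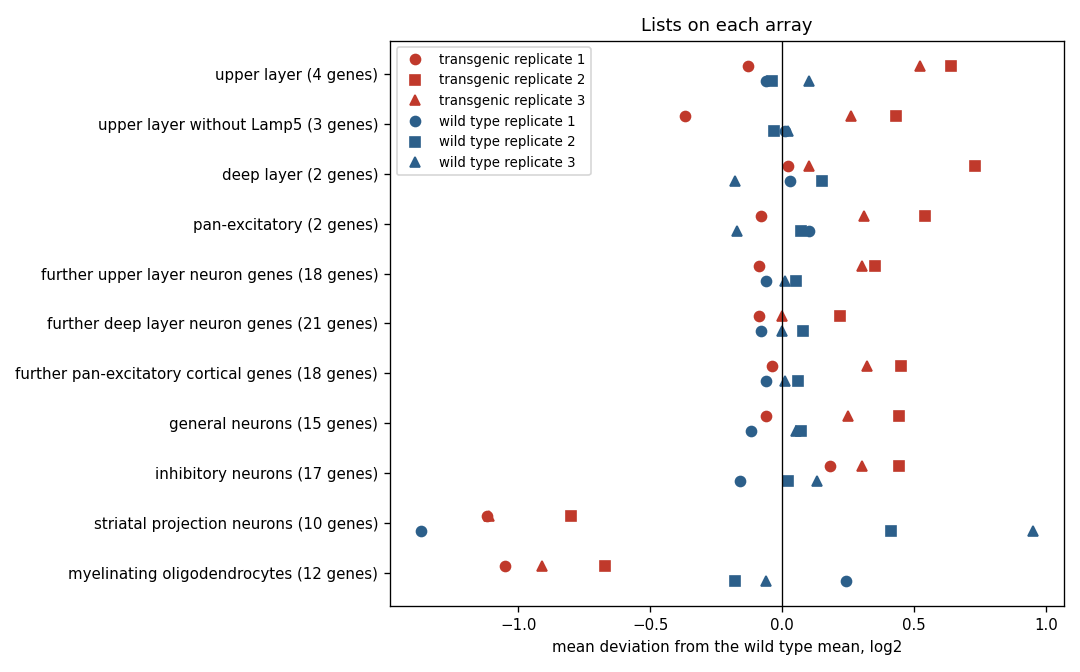
Mean deviation from the wild type mean (horizontal axis, log2) of the layer groups and of further lists, with a point for each array, coloured by group and shaped by replicate number. Transgenic replicate 1 sits near or below 0 in the cortical lists, where replicate 2 is at 0.22 to 0.73, and striatal genes separate wild type replicate 1 (-1.37) from replicates 2 (0.41) and 3 (0.95).

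Further genes of the same layers showed how far the pattern reached. Of 18 measured upper layer genes, 11 had higher and 7 lower means, with a median of 0.28. At an unadjusted p under 0.05, 2 were higher and 1 lower, beside 4.82% and 4.05% of all probe sets. They were Rasgrf2, a Ras exchange factor (0.64, SE 0.20), Pou3f2, a POU factor of upper-layer neurons (0.38, SE 0.13), and Scnn1a, a sodium channel subunit used as a marker of the thalamic input layer (-0.38, SE 0.14). Inhba (0.42), Calb1 (0.41), Pou3f1 (0.41) and Nectin3 (0.43) followed. In Rasgrf2, Pou3f2, Inhba and Calb1 every transgenic array was above every wild type array, and in Scnn1a every one was below, beside 8.54% and 7.6% of all probe sets.

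The 21 further deep layer genes had a median of -0.01, with 10 higher and 11 lower means. At an unadjusted p under 0.05, 0 were higher and 1 was lower, beside 4.82% and 4.05% of all probe sets. The lower gene was Foxp2 (-0.53, SE 0.21), a forkhead factor of the deepest cortical layer that striatal neurons also make. Bcl11b, a zinc finger factor of both deep-layer and striatal neurons, differed by -0.42. The zinc finger gene Tshz2 differed by 0.46, the serotonin receptor gene Htr1f by 0.44 and Zfpm2 by 0.29. In Htr1f and Zfpm2 every transgenic array was above every wild type array, and in 1 other gene every one was below. Across all probe sets, 8.54% lay wholly above and 7.6% wholly below. Foxp2 was 5.52, 6.15 and 5.80 in the transgenic arrays, against 6.10, 6.48 and 6.49 in the wild type arrays. Its highest wild type arrays were the 2 that were high in striatal genes. The striatal list mean of wild type replicate 1 was 6.09, against 6.33 to 6.66 in transgenic lesions. Foxp2 on that array (6.10) lay above transgenic replicates 1 and 3. Whether striatal content had a part in the Foxp2 levels was not tested.

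Of 18 further genes of excitatory neurons, among them Tbr1, 15 had higher and 3 lower means, with a median of 0.15. Unadjusted p-values under 0.05 were found for 3 higher and 0 lower genes, beside 4.82% and 4.05% of all probe sets. Slc30a3, the transporter that loads zinc into synaptic vesicles, was 8.51, 8.74 and 8.79 in the transgenic arrays, against 8.0, 7.91 and 8.01 in the wild type arrays. In Slc30a3, Nrn1 and Itpka every transgenic array, replicate 1 included, was above every wild type array, beside 8.54% of all probe sets. The Slc30a3 difference was 0.71 (SE 0.14, unadjusted p 0.00153, adjusted p 0.356 in limma). Nrn1, a membrane-anchored factor of neurite growth, differed by 0.88 (SE 0.24), and Itpka, an inositol phosphate kinase of dendritic spines, by 0.67 (SE 0.20). Nrgn (0.47), Mef2c (0.49) and Emx1 (0.51) had higher means and Camkv a lower one (-0.37), all with groups that overlap.

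**Figure D4:**
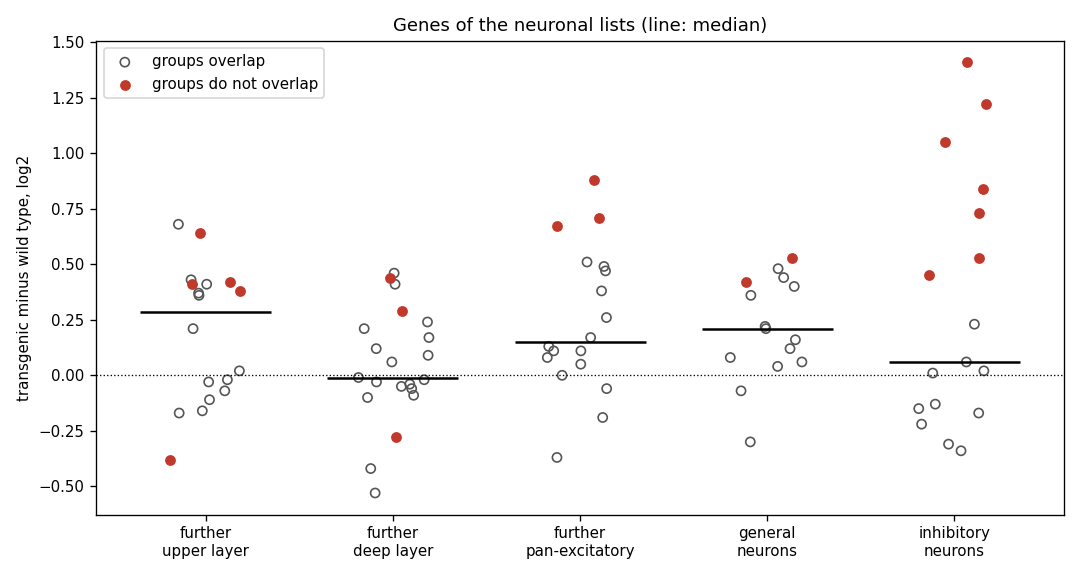
Difference between transgenic and wild type lesions (vertical axis, log2) of each gene in 5 neuronal lists, filled where the groups do not overlap, with the list median as a line. The medians are 0.28, -0.01 and 0.15 for the further upper layer, deep layer and pan-excitatory lists, 0.21 for general neurons and 0.06 for inhibitory neurons.

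Other cell types differed between the groups too, and their part in the values above was not tested. General neurons had 2 higher genes at an unadjusted p under 0.05, beside 4.82% of all probe sets. They were Nefh (0.53), a neurofilament, and Elavl4 (0.42), an RNA-binding protein. The mean of the general neuron list was 9.45 to 9.95 in transgenic and 9.39 to 9.58 in wild type lesions. On the scale relative to this list the median differences of the upper, deep and pan-excitatory genes were -0.01, 0.07 and 0.05, while Lamp5 kept 0.84 (adjusted p 0.499 in limma). Striatal genes were lower in 10 of 10, with list means of 6.33 to 6.66 in transgenic lesions and of 6.09, 7.87 and 8.41 in wild type replicates 1, 2 and 3. The striatal list mean of wild type replicate 1 thus lay below those of the transgenic arrays. Lamp5 was 8.26 on that array, and whether striatal content had a part in the Lamp5 levels was not tested.

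Myelin genes were lower in 12 of 12, at 8.66 to 9.04 in transgenic and 9.53 to 9.96 in wild type lesions, and genes of meninges and fibroblasts had higher means in 7 of 10, at 6.73 to 6.88 in transgenic and 6.15 to 6.49 in wild type lesions. Hippocampal genes had higher means in 3 of 10, thalamic genes in 3 of 10, astrocyte genes in 4 of 12, microglia and macrophage genes in 2 of 11 and endothelial genes in 5 of 10. Unadjusted p-values under 0.05 with a lower mean were found for 2 striatal, 12 myelin, 2 hippocampal, 1 thalamic and 1 astrocyte gene, and with a higher mean for 4 genes of meninges and fibroblasts and 1 thalamic gene. For microglia and endothelium there were 0. Across all probe sets, 4.05% were lower and 4.82% higher at this threshold. Xist, which is made from the inactive X chromosome of females, was 4.67, 9.14 and 4.42 in transgenic replicates 1, 2 and 3, against 9.49, 9.30 and 9.30 in wild type replicates 1, 2 and 3. The mean of 3 Y-linked genes was 5.99, 3.39 and 6.32 in the transgenic arrays, against 2.78, 3.10 and 2.94 in the wild type arrays, which marks transgenic replicates 1 and 3 as male and the other 4 arrays as female. With sex as a covariate, a fit in which the genotype term rests on transgenic replicate 2 alone, Lamp5 differed by 1.25 (adjusted p 0.111 in limma). With 1 female transgenic array and no male wild type array, sex and genotype cannot be told apart.

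Profiles over the 6 arrays were also matched across 13037 genes, each centred on its own mean, by the root mean square difference in log2 units. Nearest to Lamp5 were Exph5 (0.11), Xirp2 (0.16) and Nrn1 (0.18), whose own differences were 1.06, 0.90 and 0.88. For Tbr1 the nearest were Rps4l (0.03), Smim43 (0.04) and Rimbp2 (0.05), and for Neurod6 they were Ak5 (0.04), Trpc5 (0.05) and Fam131a (0.05). With 6 arrays and this many candidates, the names describe these arrays only.

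**Figure D5:**
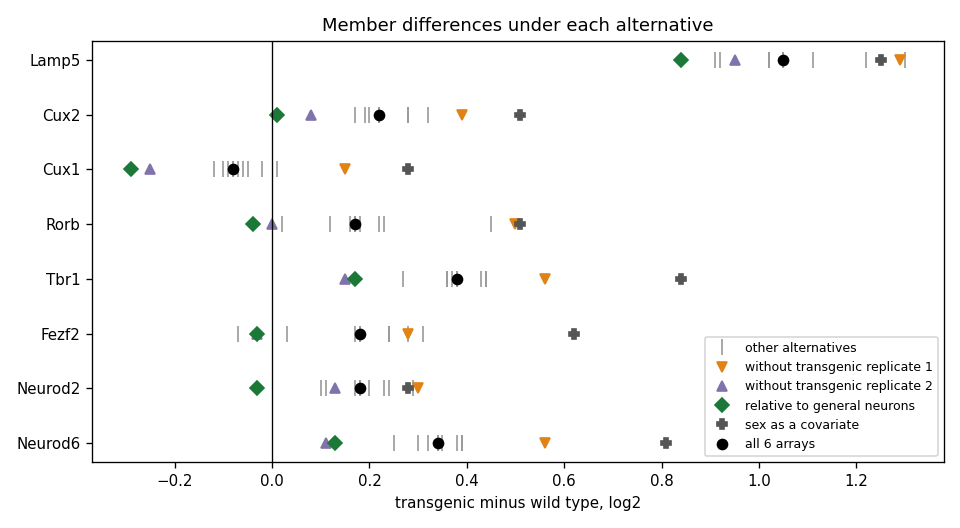
Difference between transgenic and wild type lesions (horizontal axis, log2) of the 8 genes with all 6 arrays and under 14 alternatives of processing or of the arrays used. Lamp5 stays between 0.84 and 1.30, and Cux1, Rorb, Fezf2 and Neurod2 cross 0 under at least 1 alternative.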

How the data were processed

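Total RNA from the lesions was measured on 6 arrays. Per the submitters' processing notes, the authors made the deposited intensities with RMA, run in Affymetrix Expression Console. The table holds them on a linear scale, so they were turned to log2 without a pseudocount (lowest value 3.73). For versions, build, detection calls and batches nothing is stated in the labels, and no filter or batch term was applied.

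Of 41345 probe sets, 23521 had 1 gene symbol in the platform annotation, 1814 several and 16010 none, and all entered the test. limma 3.58.1 in R 4.3.3 (lmFit, eBayes) compared transgenic with wild type arrays without covariates, two-sided, with Benjamini-Hochberg adjustment over all probe sets, and was checked on simulated data. Each SD covers a group's 3 arrays. The number of arrays limits precision: the median standard error was 0.19.

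The 8 measured genes, the 14 lists (184 genes, 177 measured) and the tests were chosen with earlier results of these data known, so no p is given for a list. Named were all members, list genes with an unadjusted p under 0.05 and up to 4 more by p in the cortical, general and inhibitory neuron lists, and the 3 nearest profiles to Lamp5, Tbr1 and Neurod6. For the remaining lists, counts of genes by direction and by unadjusted p are given instead of names. Alternatives covered normalization, a filter on dim probe sets, array weights, sex, replicate number, probe sets, scaling to neurons and leaving out each array.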

Additional observations from a re-analysis of the deposited data

How the results depend on the processing

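Lamp5 had a higher mean in transgenic lesions under all 14 alternatives, as had Cux2, Tbr1 and Neurod6. Leaving out dim probe sets, a block by replicate number and averaging over probe sets could not change these differences, so they add no support. Cux1 turned to 0.01 with array weights and 0.28 with sex as a covariate, Rorb to -0.04 relative to general neurons, Fezf2 to -0.07 with array weights and -0.03 relative to general neurons, and Neurod2 to -0.03 relative to general neurons. The upper layer median turned to -0.01 on that scale. The cause was not tested.

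With array weights 2611 of 41345 probe sets passed the adjusted threshold in limma and 10793 an unadjusted p under 0.05. Of the 8 genes, 6 were among the 10793. With sex as a covariate, which sets transgenic replicate 2 alone against the wild type arrays, 1481 probe sets passed the adjusted threshold in limma. An unadjusted p under 0.05 was given to 8604 probe sets, and 4 of the 8 genes were counted at this unadjusted threshold. The upper, deep and pan-excitatory medians in this fit were 0.51, 0.73 and 0.54. Leaving out dim probe sets gave 2243 unadjusted calls, as fewer were tested.

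Leaving out each array in turn gave 0 to 335 adjusted calls (335 without transgenic replicate 2). Unadjusted calls numbered 2031 to 5168 (2031 without wild type replicate 1, 2253 without wild type replicate 2, 5168 without transgenic replicate 1). Among the unadjusted calls were 1 to 4 of the 8 genes (4 without transgenic replicate 1: Lamp5, Rorb, Tbr1 and Neurod6). The medians were 0.04 to 0.44 for upper, 0.06 to 0.42 for deep and 0.12 to 0.43 for pan-excitatory genes. Differences were 0.91 to 1.29 for Lamp5, -0.25 to 0.15 for Cux1 and -0.03 to 0.31 for Fezf2. Without moderation of variances 0 probe sets passed.

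With the replicate number as a block, 0 probe sets passed the adjusted threshold and 2999 an unadjusted p under 0.05, and Lamp5 differed by 1.05 (adjusted p 0.591 in limma). Arrays of the same number in both groups did not deviate together (correlations across probe sets of 0.01, -0.10 and -0.07 for replicates 1, 2 and 3). Arrays of different numbers gave -0.07 to 0.11. These values show no sign that the numbers pair the samples, but could not reveal a pairing that touches few probe sets. Signal over background could not be judged without detection calls.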
